A study of Mus musculus with 10 samples.

Results

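The 10 genes described here, of the bone morphogenetic protein (BMP) pathway, were followed by symbol through mouse iKCs with raised or sponged miR-342-3p. They were the ligand Bmp2, the receptors Bmpr2 and Bmpr1a, the signal-carrying SMADs Smad1 and Smad5, the ID factors Id1, Id2 and Id3, and the inhibitory SMADs Smad6 and Smad7. All 10 were found among the 55815 genes whose counts could be read, and all 10 were among the 15767 genes tested. The members were taken by name, but with earlier results of these data known.

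BMP ligands bind type I receptors such as BMPR1A and type II receptors such as BMPR2 on the cell surface. The active receptor complex phosphorylates SMAD1 and SMAD5, which enter the nucleus with SMAD4 and switch on Id1, Id2, Id3, Smad6 and Smad7. ID proteins lack a DNA-binding region and hold E proteins off DNA, while SMAD6 and SMAD7 block the receptors and so close a feedback loop. In the mouse liver, sinusoidal endothelium is a known source of BMP2 and BMP6, which raise hepcidin in hepatocytes, and ID3 is known as a Kupffer cell factor.

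The study sequenced polyadenylated RNA of the cell line iKCs after transduction with vectors labelled LV and sorting on viability and on the fluorescent protein mOrange, which every group carried. A first vector overexpressed miR-342-3p (n = 3) and was set against the group labelled Mutated miR-342-3p control (n = 2). Another carried a sponge that takes up the microRNA (n = 3), set against the Scramble control sponge (n = 2). All groups are of the same cell line, and which promoter drives the vectors is not given in the labels. The titles call the libraries biological replicates without saying how their cultures were kept apart. The p-values therefore cover the spread among these libraries, which may be technical. Totals ranged from 25713110 to 59260772 counts per library. In the deposited table the counts of sponge replicate 3 and of 1 scramble library stood joined in a single field and were split by likelihood, so values of those 2 libraries rest on that split; with both left out, Bmp2 with overexpression against the mutated control had a log2 fold change of −0.94 (edgeR adjusted p = 0.00929) and Id1 1.12 (edgeR adjusted p = 0.0943). The scramble libraries are given in the order joined field, last field. Tests are edgeR's quasi-likelihood test with Benjamini-Hochberg adjustment over all 15767 tested genes, and a gene is called at an adjusted p under 0.05.

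Levels are CPM, the count scaled to library size and TMM factors, unless a sentence says per kilobase. The Mir342 hairpin gene averaged 9.64 ± 1.54 CPM in overexpression libraries (SD, n = 3), against 3.04 ± 0.256 CPM in mutated control libraries (SD, n = 2). It had 0 counts in the 5 sponge and scramble libraries. The mature microRNA was not measured. Of 17 macrophage and Kupffer cell markers, Csf1r, Cd68, Lyz2 and Adgre1 were abundant and the list summed to between 5396 and 6475 CPM in the 10 libraries, and 14 were tested. Of the markers tied to Kupffer cells, Spic averaged 12.5 CPM, Marco 3.42 CPM, Clec1b 2.37 CPM, Nr1h3 2.17 CPM and Cd5l 2.09 CPM, Vsig4 averaged 0.0403 CPM, and Clec4f and Timd4 had 0 counts in all libraries.

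The microRNA and its possible sites in the members are shown first. Direct effects of a microRNA on a transcript mostly go through a match to the seed, bases 2 to 8, given in capitals. Other kinds of match and other parts of the transcripts were not searched, so a member without a match here may still be a direct target. The mature sequence is that of RefSeq on GRCm38.p6 (chr12:108658680-108658702, plus strand). The longest annotated 3′ UTR of each member in GENCODE vM21 (GRCm38) was searched for GTGTGAG (7mer-m8), GTGTGAGA (8mer) and TGTGAGA (7mer-A1). Bmpr2 and Smad1 held 7mer-m8 sites, which are in capitals inside windows of 30 bases of the transcript strand.
mmu-miR-342-3p: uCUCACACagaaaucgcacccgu
Bmpr2, first site: tagaatatcgtGTGTGAGctgatgaataat
Bmpr2, second site: gtgacggagcaGTGTGAGtatgaaataaag
Smad1, site: agtgcatgtatGTGTGAGcgcaatgtgtgt

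The Bmpr2 windows lie in the terminal exon at chr1:59877256-59877285 and chr1:59877348-59877377 (plus strand), with the matches starting at bases 6782 and 6874 of a UTR of 8529 bases. The Smad1 window lies at chr8:79341772-79341801 (minus strand), with the match at base 1831 of 2041. None of the 3 match types occurred in the UTR of Bmp2 (1170 bases), Id1 (563), Id2 (785), Id3 (536), Smad6 (448), Smad7 (1570), Bmpr1a (3810) or Smad5 (4899). No member held an 8mer. Members with an 8mer or 7mer-m8 site were thus 2 of 10, and 16.3% of the 11933 tested genes with a UTR held one. That share was not matched for UTR length. The UTRs of Bmpr2 and Smad1 are longer than the median of 1320 bases over those genes, as are those of Bmpr1a, Smad5 and Smad7, which held no site. A match is a string in an annotated UTR and not a shown binding site.

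Per kilobase of exon, Id2 stood far above the other members, with a mean of 72.2 CPM per kilobase over the 10 libraries. Smad1 (7.63), Smad5 (5.91), Bmp2 (4.73) and Bmpr2 (4.48 CPM per kilobase) followed. Id3 (2.83) and Bmpr1a (2.45 CPM per kilobase) came next, and Smad7 (0.932), Id1 (0.668) and Smad6 (0.180 CPM per kilobase) were lowest. Among ID factors, then, the messenger of Id2 was in large excess over those of Id3 and Id1.

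**Figure D1:**
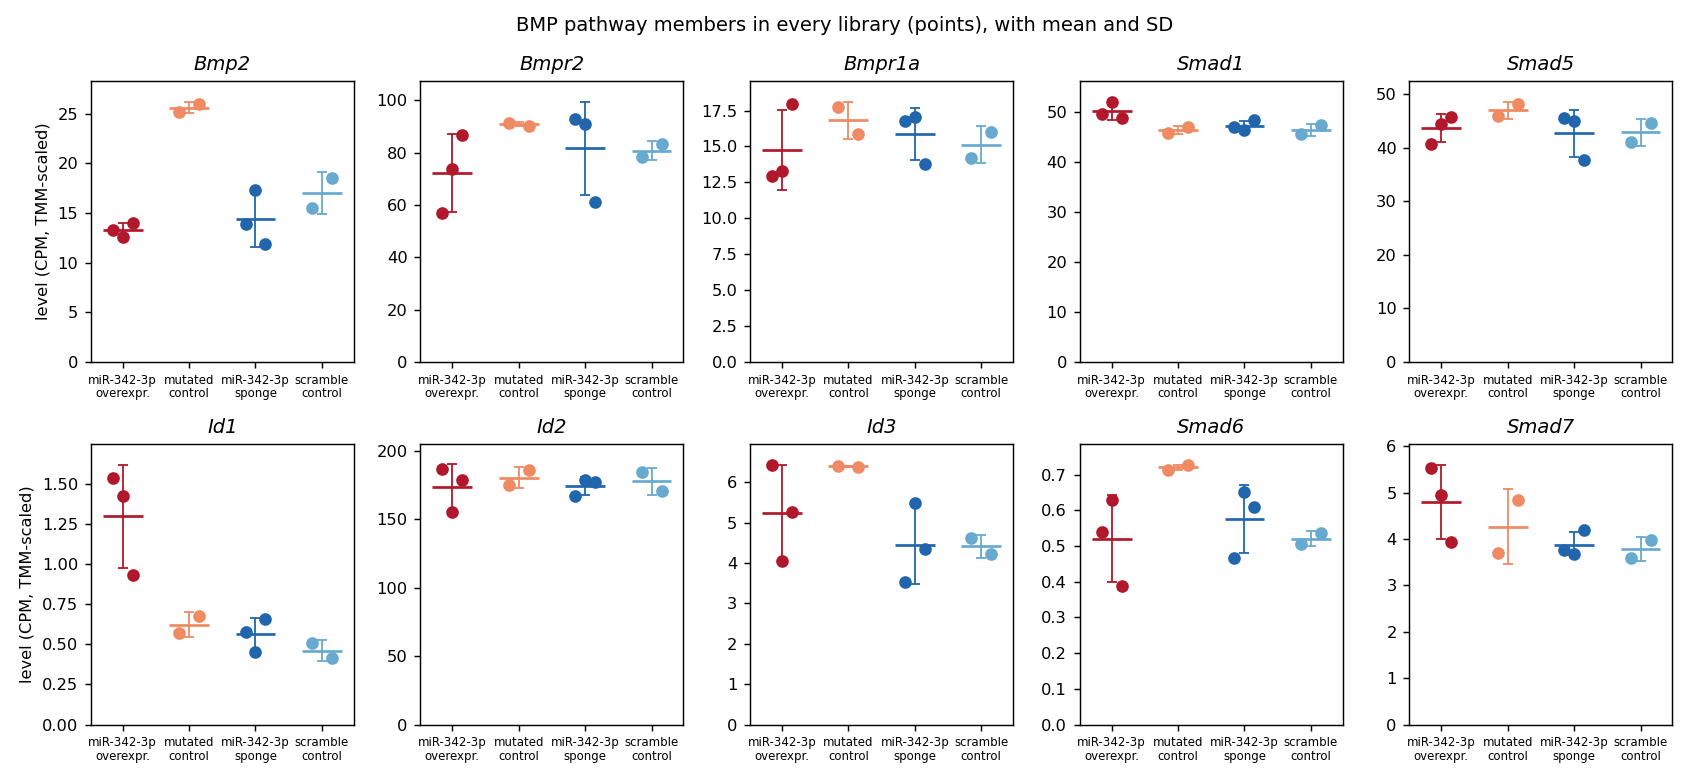
Level of each member in CPM (vertical axes, from 0) in every library (points), by vector group, with the group mean (line) and SD (bar). Bmp2 is highest in the 2 mutated control libraries, at 25.2 and 26.0 CPM, and Id1 is highest in the 3 overexpression libraries, from 0.934 to 1.54 CPM.

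Bmp2 encodes the secreted ligand. Its gene spans bases 133394079 to 133404805 of chromosome 2, plus strand (coordinates as deposited, GENCODE vM30). Overexpression libraries held 13.3, 12.6 and 14.0 CPM of Bmp2, and mutated control libraries 25.2 and 26.0 CPM. The sponge libraries held 13.9, 17.3 and 11.8 CPM, and the scramble libraries 15.6 and 18.5 CPM. Bmp2 was thus high in the 2 mutated control libraries, above the other 8 libraries without overlap, and the overexpression libraries lay inside the range of the sponge libraries.

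Against the mutated control, Bmp2 fell 1.93-fold with overexpression (log2 fold change −0.95, SE 0.13, edgeR adjusted p = 0.0167; lower in 3 of 3 libraries). It was the only member called in this comparison, where 0.539% of all tested genes were called and 0.292% were called lower, and it ranked 17 by p. The call of Bmp2 ended without overexpression replicate 2 (edgeR adjusted p = 0.11), in a fit that called 6 of all 15745 genes. It also ended without mutated control replicate 1 or 2, as did the calls of all other genes. Those fits leave 1 control library. The log2 fold changes of Bmp2 with these libraries left out ran from −0.97 to −0.90.

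Against the scramble control the difference in Bmp2 was smaller and did not pass (−0.37, SE 0.14, edgeR adjusted p = 0.298), although the groups did not overlap. The mutated control exceeded the scramble control by 0.58 on the log2 scale (SE 0.15, edgeR adjusted p = 0.327), also without overlap. The sponge against the scramble control gave −0.25 (SE 0.14, edgeR adjusted p = 1) with overlapping groups. These comparisons share control libraries, so their values are not independent. In order of the means Bmp2 ran from the mutated control (25.6 ± 0.571 CPM, SD, n = 2) through the scramble control (17.0 ± 2.11, n = 2) and the sponge (14.4 ± 2.73, n = 3) to overexpression (13.3 ± 0.723, n = 3). The neighbours sponge and overexpression overlapped, as did scramble and sponge.

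Endothelial markers were read beside Bmp2, since that cell type is a known source of it. The 7 markers summed to between 21.3 and 24.3 CPM with overexpression and to 28.8 and 31.1 CPM in the mutated control, with 23.9 to 25.1 CPM in the sponge and 23.1 to 25.1 CPM in the scramble group. Most of the sum was Kdr, a VEGF receptor, which itself fell against the mutated control (log2 fold change −0.47, SE 0.08, edgeR adjusted p = 0.0352). That call ended under 11 of 20 alternatives, added after seeing the data, with log2 fold changes from −0.52 to −0.41 over all of them. The other 3 tested markers were not called; against the mutated control Stab2 had a log2 fold change of −0.25 (SE 0.17), Pecam1 −0.41 (SE 0.49) and Cdh5 0.21 (SE 0.20), and they averaged 2.21, 0.311 and 1.32 CPM over the 10 libraries. Clec4g had 0 counts in all libraries, and Tek and Lyve1 averaged 0.0223 and 0.0721 CPM. The part of these genes in the Bmp2 result was not tested.

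**Figure D2:**
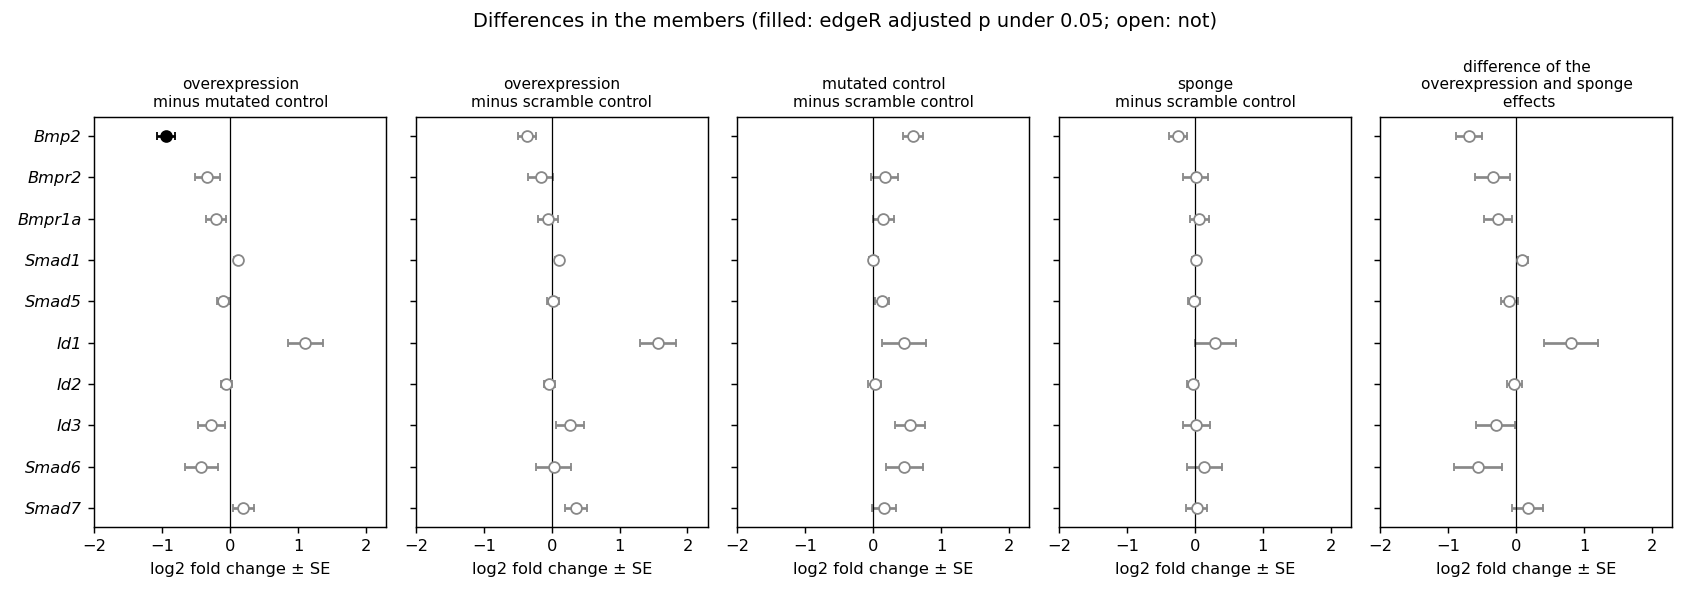
Log2 fold change of each member with its SE (horizontal bars) in the 5 comparisons, from the fit of all 10 libraries. The only filled point, for an adjusted p under 0.05, is Bmp2 in overexpression minus mutated control at −0.95; Id1 lies farthest to the right in both overexpression comparisons, at 1.11 and 1.56.

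The receptors came next in the pathway. Bmpr2, the type II receptor, held 56.8, 73.6 and 86.6 CPM with overexpression and 91.4 and 90.3 CPM in the mutated control. It held 92.7, 91.0 and 61.0 CPM with the sponge and 78.2 and 83.3 CPM in the scramble control. Its spread within the overexpression and sponge groups was as wide as any gap between groups, and the low libraries were overexpression replicate 1 and sponge replicate 3. No comparison of Bmpr2 passed; the log2 fold change was −0.33 (SE 0.18, edgeR adjusted p = 0.347) for overexpression against the mutated control and 0.01 (SE 0.18) for the sponge against the scramble control. Without the expression filter edgeR called Bmpr2 lower with overexpression than in the mutated control (−0.33, adjusted p = 0.00736), in a fit that called 4.67% of all genes. Its reported fit, for the member with the 2 sites printed above, called no difference with either vector.

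Bmpr1a, the type I receptor, held 12.9, 13.3 and 17.9 CPM with overexpression and 17.7 and 15.9 CPM in the mutated control. It held 16.7, 17.0 and 13.8 CPM with the sponge and 14.2 and 16.03 CPM in the scramble control. Its exons share 4.57% of their length with the antisense gene Gm17110, which had at most 3 counts in any library; the counting did not use strand. The groups overlapped in every pair tested, and the log2 fold change against the mutated control was −0.21 (SE 0.14, edgeR adjusted p = 0.438).

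Bmpr2 is the longest member, with 17983 exonic bases, so its level was set beside that of other long genes. The 1577 tested genes with the longest exons (at least 9022 bases) deviated from their mean over the libraries by −0.22 on the log2 scale in overexpression replicate 1 and by −0.13 in sponge replicate 3. In the other 8 libraries the deviation ran from −0.02 to 0.09. The libraries with the lowest Bmpr2 were therefore those with the lowest long genes. For overexpression against the mutated control the median log2 fold change was −0.11 over those long genes and −0.01 over all tested genes. Bmp2, with 3555 exonic bases, was at 14.0 CPM in overexpression replicate 3, where long genes deviated by 0.06, and at 13.3 CPM in replicate 1, where they deviated by −0.22. In sponge replicate 3, where they deviated by −0.13, Bmp2 was at 11.8 CPM, the lowest of the 10 libraries, against 13.9 and 17.3 CPM in the other sponge libraries.

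**Figure D3:**
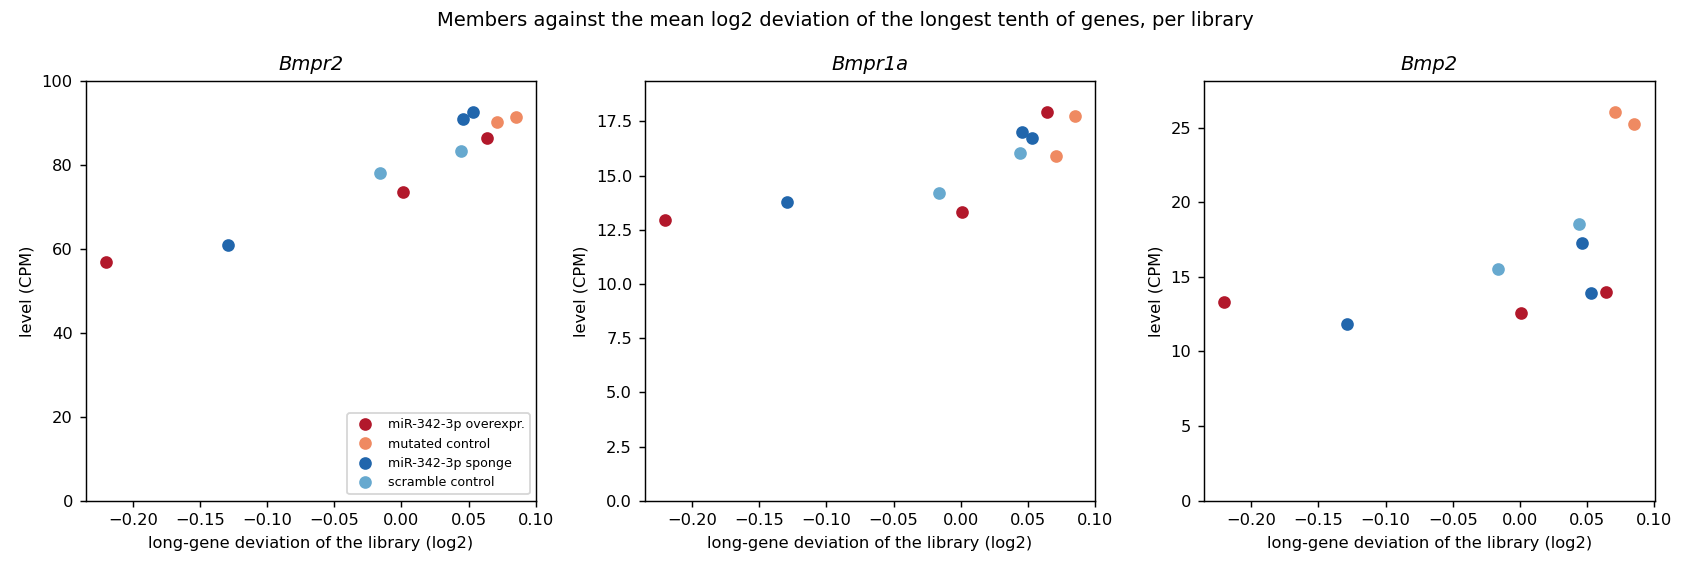
Level of Bmpr2, Bmpr1a and Bmp2 (CPM, vertical axes from 0) against the mean log2 deviation of the 1577 longest genes in the same library (horizontal axes); each point is a library, coloured by group. Bmpr2 is lowest, at 56.8 and 61.0 CPM, in the 2 libraries farthest to the left, while Bmp2 lies between 12.6 and 14.0 CPM in the 3 overexpression libraries and is lowest, at 11.8 CPM, in the sponge library second from the left.

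Smad1 and Smad5 encode the signal-carrying SMADs. Smad1 held 49.5, 52.0 and 48.9 CPM with overexpression and 45.9 and 47.0 CPM in the mutated control. It held 47.0, 46.4 and 48.4 CPM with the sponge and 45.6 and 47.3 CPM in the scramble control. Overexpression was the highest group without overlap, but the gap was small, with a log2 fold change of 0.11 against either control (SE 0.06 each, edgeR adjusted p = 0.334 and 0.438). The 95% interval against the mutated control, from the SE with 6 degrees of freedom, ran from −0.03 to 0.26, so Smad1 with its single site was not called in either direction.

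Smad5 held 40.8, 44.4 and 45.8 CPM with overexpression and 45.9 and 48.1 CPM in the mutated control. It held 45.5, 45.0 and 37.6 CPM with the sponge and 41.1 and 44.7 CPM in the scramble control. Its log2 fold change against the mutated control was −0.11 (SE 0.09, edgeR adjusted p = 0.512), and the low libraries were again overexpression replicate 1 and sponge replicate 3.

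Id1 had the largest estimated difference of all members, at a low level. Its gene spans bases 152578171 to 152579330 of chromosome 2, plus strand. Overexpression libraries held 91, 61 and 24 counts, or 1.54, 1.42 and 0.934 CPM, and mutated control libraries 27 and 28 counts, or 0.567 and 0.677 CPM. Sponge libraries held 0.578, 0.453 and 0.656 CPM and scramble libraries 0.505 and 0.414 CPM. All 3 overexpression libraries were above the other 7, and the lowest of the 3 was replicate 3, the shallowest library. The highest was replicate 1, where long genes deviated by −0.22. Within the sponge group Id1 was highest in replicate 3, where they deviated by −0.13. A link of Id1 to this deviation was not tested. In bulk RNA, fewer cells with a transcript and less of it per cell cannot be told apart, for Id1 as for every gene here.

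The log2 fold change of Id1 was 1.11 against the mutated control (SE 0.26, 95% interval from 0.48 to 1.73), a 2.16-fold difference. It missed the threshold (edgeR adjusted p = 0.0878, rank 212), and so did the 2.96-fold difference against the scramble control (1.56, SE 0.27, edgeR adjusted p = 0.0952, rank 19). DESeq2 called Id1 in both, with adjusted p-values of 0.0478 and 0.00588, and edgeR called it in both without overexpression replicate 3 (adjusted p = 0.0297 and 0.0437). Over all genes those shares were 3.15% and 1.48% with DESeq2, and 1.78% and 0.0957% with edgeR without that replicate. Without the expression filter edgeR also called Id1 in both (adjusted p = 0.0019 and 9.29e-06). That fit called 4.67% of all genes against the mutated control and 747 of 29774 against the scramble control. The sponge against the scramble control gave 0.31 (SE 0.30) and the mutated control against the scramble control 0.46 (SE 0.32), neither of which passed. Id1 and Bmp2, a target and a ligand of the pathway, thus differed in opposite directions between overexpression and the mutated control, although only Bmp2 was called in the reported edgeR fit.

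**Figure D4:**
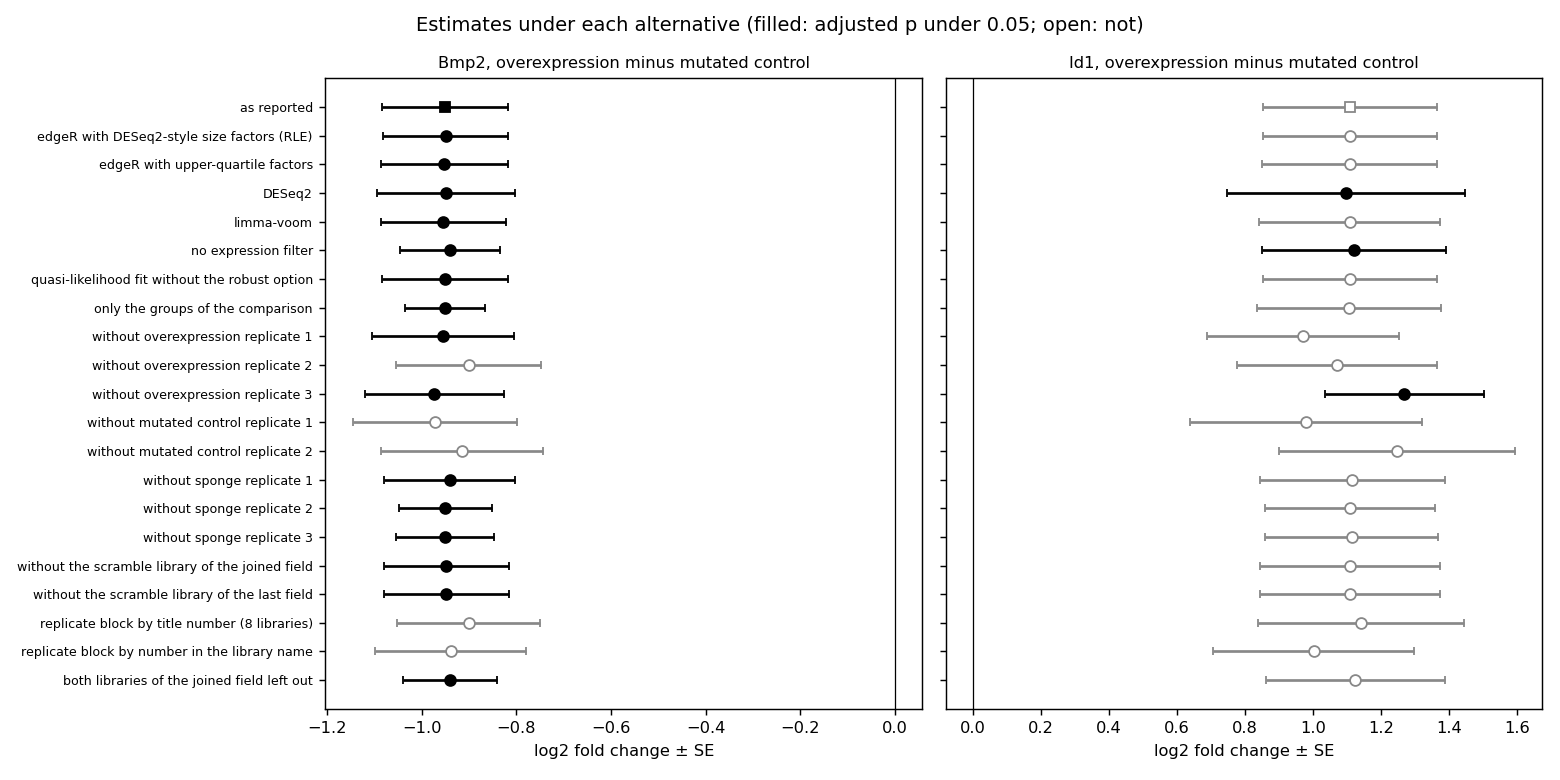
Log2 fold change with SE of Bmp2 (left) and Id1 (right) for overexpression minus mutated control, as reported and under each of 20 alternatives (vertical axis). Bmp2 stays between −0.97 and −0.90 and Id1 between 0.97 and 1.27, while the side of the adjusted p threshold (filled or open) changes for both.

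Id2, the abundant ID factor, did not separate the groups. It held 187, 155 and 179 CPM with overexpression and 175 and 186 CPM in the mutated control. It held 167, 179 and 178 CPM with the sponge and 185 and 171 CPM in the scramble control. The log2 fold change against the mutated control was −0.06 (SE 0.08), with a 95% interval from −0.26 to 0.15, which leaves out a 1.5-fold change in either direction.

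Id3 held 6.43, 4.04 and 5.25 CPM with overexpression and 6.41 and 6.39 CPM in the mutated control. It held 3.53, 5.48 and 4.36 CPM with the sponge and 4.61 and 4.21 CPM in the scramble control. The overexpression libraries spread over most of the range of the 10 libraries, and the 2 mutated control libraries lay close to its top. No comparison passed; the mutated control exceeded the scramble control by 0.54 on the log2 scale (SE 0.22, edgeR adjusted p = 0.7) without overlap, and overexpression against the mutated control gave −0.28 (SE 0.20, edgeR adjusted p = 0.453).

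The inhibitory SMADs were the least expressed members with Id1. Smad6 held 32, 27 and 10 counts with overexpression (0.540, 0.630 and 0.389 CPM) and 34 and 30 counts in the mutated control (0.714 and 0.726 CPM). It held 0.467, 0.650 and 0.609 CPM with the sponge and 0.505 and 0.535 CPM in the scramble control. Its log2 fold change against the mutated control was −0.43 (SE 0.25, edgeR adjusted p = 0.368), and the 95% interval from −1.03 to 0.17 included a 2-fold decrease.

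Smad7 held 5.52, 4.95 and 3.93 CPM with overexpression and 3.70 and 4.84 CPM in the mutated control. It held 3.76, 3.68 and 4.19 CPM with the sponge and 3.60 and 3.97 CPM in the scramble control. The groups overlapped in every pair tested. The log2 fold change was 0.20 (SE 0.16, edgeR adjusted p = 0.506) against the mutated control and 0.36 (SE 0.16, edgeR adjusted p = 0.37) against the scramble control.

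Counted together, edgeR called 1 of 10 members lower and 0 higher for overexpression against the mutated control, DESeq2 called 2 and limma-voom 1. Over all tested genes edgeR called 0.539%, DESeq2 3.15% and limma-voom 0.666%. An unadjusted p under 0.05 was found for 2 members and for 18.2% of all tested genes. Their median log2 fold change was −0.16, beside −0.01 over all tested genes. In 6 of 10 members the groups did not overlap, beside 38.2% of all tested genes. Against the scramble control edgeR called 0 members, 3 had an unadjusted p under 0.05 (13.4% of all genes), and DESeq2 called 1 and limma-voom 0; there edgeR called 0.0444% of all genes, DESeq2 1.48% and limma-voom 0.0444%. In that comparison 3 of 10 members did not overlap, beside 31% of all genes.

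Between the controls edgeR called 0 members (2 at an unadjusted p under 0.05, as were 6.47% of all genes; DESeq2 1, limma-voom 0), beside 0.0254% of all genes with edgeR, 0.52% with DESeq2 and 0.0254% with limma-voom. The mutated control was above the scramble control in 9 of 10 members, with a median log2 fold change of 0.17 beside 0.00 over all genes, and 6 of 10 members did not overlap, beside 48.4% of all genes. DESeq2's call was Bmp2 (adjusted p = 0.0379), and edgeR called Bmp2 and Id3 when only these 4 libraries were fitted (adjusted p = 0.000163 and 0.00878), a fit that called 3.79% of all genes. The exception in direction was Smad1, at −0.00 (SE 0.06).

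No member was called with the sponge against its scramble control. EdgeR, DESeq2 and limma-voom each called 0, and 0 had an unadjusted p under 0.05; over all genes edgeR called 0%, DESeq2 0.00634% and limma-voom 0%, and 2.33% had an unadjusted p under 0.05. The members' median log2 fold change was 0.03, and 0 of 10 had groups that did not overlap, beside 15.2% of all genes. The widest estimates were Id1 at 0.31 and Bmp2 at −0.25.

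The difference between the overexpression and sponge effects, each against its own control, was tested directly. EdgeR called 0 members (1 at an unadjusted p under 0.05, as were 8.06% of all genes), DESeq2 0 and limma-voom 0, and of all genes edgeR called 0%, DESeq2 0.304% and limma-voom 0%. For Bmp2 the difference was −0.70 (SE 0.19, edgeR adjusted p = 0.407) and for Id1 0.80 (SE 0.40, edgeR adjusted p = 0.647). The effects of the vectors on these members were thus not shown to differ.

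The rest of the pathway was read from lists of its genes by role. Counts per list for overexpression against the mutated control stand beside 18.2% of all tested genes at an unadjusted p under 0.05. Of all tested genes edgeR called 0.539% there, DESeq2 3.15% and limma-voom 0.666%. Of 25 other ligands of the BMP and TGF-beta family, 7 had 0 counts in all libraries and 5 were tested, among them Tgfb1, the main TGF-beta ligand, and Gdf15, a stress-induced family member. Bmp4 and Bmp7 were among those with 0 counts (up to 0.117 CPM could go unseen in the shallowest library, at 3 counts), and Bmp6 averaged 0.00419 CPM. None of the other BMP-named ligands of this list passed the expression filter. EdgeR called 0 of the 5 with overexpression against the mutated control, 1 had an unadjusted p under 0.05, and DESeq2 called 1 and limma-voom 0. Tgfb1 had the smallest p, with 508, 477 and 430 CPM with overexpression and 387 and 383 CPM in the mutated control. Its log2 fold change was 0.29 (SE 0.08, edgeR adjusted p = 0.112). DESeq2's call was Tgfb1 (adjusted p = 0.0175), which was called under 3 of 20 alternatives.

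Of 15 further receptors and co-receptors 10 were tested and edgeR called 0 with overexpression against the mutated control (3 at an unadjusted p under 0.05; DESeq2 2, limma-voom 0). Bmpr1b, another type I BMP receptor, had 0 counts in all libraries. Acvr2a, a type II receptor shared by activins and BMPs, had the smallest p, with 13.6, 15.2 and 16.2 CPM with overexpression and 20.6 and 20.1 CPM in the mutated control. Its log2 fold change was −0.45 (SE 0.11, edgeR adjusted p = 0.106). DESeq2 called Acvr2a (adjusted p = 0.0219), and it was called under 3 of 20 alternatives. Acvr2a held 16.1 ± 2.21 CPM with the sponge (SD, n = 3) and 16.9 ± 0.525 CPM in the scramble control (SD, n = 2). The sponge libraries held 17.25, 17.55 and 13.59 CPM, so its low libraries included overexpression replicate 1 and sponge replicate 3.

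Of 15 antagonists 4 were tested and edgeR called 0 in that comparison (2 at an unadjusted p under 0.05; DESeq2 and limma-voom 0). The classical secreted antagonist Nog had 0 counts in all libraries. Bambi, a pseudoreceptor that dampens signalling, averaged 2.88 ± 0.203 CPM in overexpression libraries (SD, n = 3) and 3.67 ± 0.144 CPM in mutated control libraries (SD, n = 2), a log2 fold change of −0.34 (SE 0.12, edgeR adjusted p = 0.192). Among 4 other SMADs, Smad9 averaged 0.0402 CPM and was not tested, and Smad4, the shared partner, had −0.12 (SE 0.09, edgeR adjusted p = 0.461); edgeR called 0 of 3 (0 at an unadjusted p under 0.05; DESeq2 and limma-voom 0).

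All 24 intracellular regulators of receptors and SMADs were tested, and edgeR called 0 (2 at an unadjusted p under 0.05; DESeq2 and limma-voom 0), with a median log2 fold change of −0.03. The smallest p was that of Tob1, which binds SMADs and dampens BMP signalling in bone cells (0.20, SE 0.07, edgeR adjusted p = 0.205). The 3 E proteins, the partners of ID factors, were abundant and edgeR called 0 (1 at an unadjusted p under 0.05; DESeq2 and limma-voom 0). Tcf12 averaged 129 ± 16.6 CPM in overexpression libraries (SD, n = 3) and 152 ± 2.45 CPM in mutated control libraries (SD, n = 2), with −0.24 (SE 0.10, edgeR adjusted p = 0.263). With 15529 exonic bases Tcf12 is itself 1 of the long genes described above. It was lowest in overexpression replicate 1 (111 CPM) and next lowest in sponge replicate 3 (128 CPM).

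Of 20 other genes known to be induced by BMP or TGF-beta in some cell types 8 were tested and 1 rose. It was Tgfbi, a secreted matrix protein named for its induction by TGF-beta. Tgfbi held 693, 691 and 640 CPM with overexpression and 515 and 496 CPM in the mutated control. Its log2 fold change was 0.42 (SE 0.08, edgeR adjusted p = 0.0489). It held 584 ± 48.2 CPM with the sponge (SD, n = 3) and 555 ± 3.60 CPM in the scramble control (SD, n = 2). Its call ended under 11 of 20 alternatives, with log2 fold changes from 0.40 to 0.46 over all of them. The other tested genes of this list were not called, and their list had a median of −0.18.

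In the other 4 comparisons edgeR called 0 genes of these lists, with 0 to 3 genes of a list at an unadjusted p under 0.05. Over all tested genes the share at an unadjusted p under 0.05 ran from 2.33% to 13.4% in these comparisons. DESeq2 called 1 of the other targets with overexpression against the scramble control, where it called 1.48% of all genes, and limma-voom called 0.

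**Figure D5:**
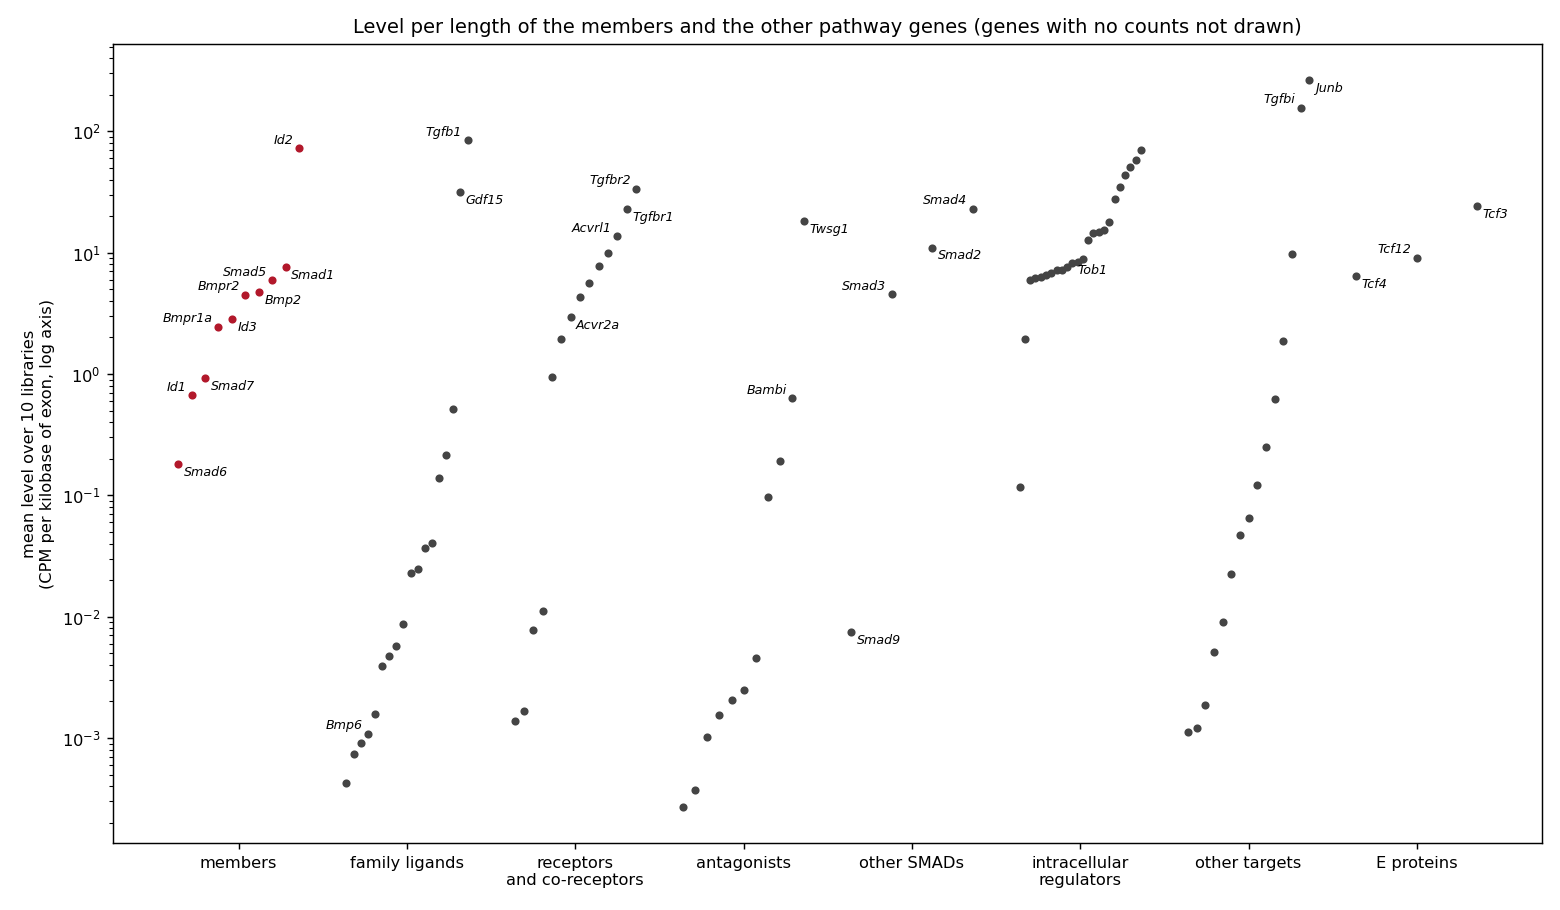
Mean level over the 10 libraries in CPM per kilobase of exon (log axis) of the members (red) and of the other pathway genes by list (grey); each point is a gene, and genes without counts are not drawn. Among members Id2 is highest, at 72.2, and Smad6 lowest, at 0.180 CPM per kilobase; Tgfb1 stands at 84.3 and Bmp6 at 0.00108.

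Genes whose levels ran most like a member's were found by Pearson's r of log2 CPM over the 10 libraries, among the 10300 tested genes whose log2 CPM averaged 2 or more. These are descriptions of the same libraries, which share depth and group, and carry no test. For Bmp2 they were the collagenase Mmp13 (0.97), 2900089D17Rik (0.96) and Ptp4a1 (0.96). For Id1 they were St3gal5 (0.98), Fbxl14 (0.97) and Kpna2 (0.97). For Id2 they were Bcl2l12 (0.96), Tmem19 (0.91) and Matr3 (0.90), and for Id3 Xylt2 (0.93), Fignl2 (0.88) and Acaa1a (0.86).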

How the data were processed

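Per the file headers, the authors deposited raw counts per gene made with featureCounts 2.0.1 on GENCODE vM30, for fragments with both ends mapped, an overlap of at least 10 bases and no use of strand. The submitters' processing notes name STAR 2.7.6a, Trimmomatic, FastQC 0.11.6 and GRCm38. Coordinates of genes are as deposited and were not converted to the GRCm38 of the site windows. The deposited span of Smad1, bases 80065024 to 80126147 of chromosome 8, does not hold its site window. Gene spans and site windows should therefore not be read on one scale. The counting command names 12 libraries, of which 10 were analysed here.

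Lines hold 15 fields under 16 column names, because 2 counts are joined. A negative binomial likelihood (dispersion 0.1) chose the split of each, kept where favoured at least 100-fold, which left out 51 of 55866 genes. Tested on 16 pairs of intact libraries, at least 99.9874% of splits were right, and all 10 members in every pair. The scramble libraries could not be tied to replicate numbers.

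The counts of all 10 libraries were fitted together with edgeR 4.0.16 in R 4.3.3 (filterByExpr, TMM, robust quasi-likelihood test, 6 residual degrees of freedom), and p-values were adjusted by Benjamini-Hochberg over 15767 genes with a threshold of 0.05. The SE was derived from the estimate and its F statistic. DESeq2 1.42.0 and limma-voom (limma 3.58.1) were alternatives, besides other scaling, filters and left-out libraries. The fit was tested on simulated data. Groups came from the sample labels. Outside the members, called genes of each list were named (up to 3 by p), or else the gene with the smallest p for overexpression against the mutated control; for likeness, the 3 genes of highest Pearson's r. Kdr and genes at or near 0 were named after their values were seen. The members and lists were chosen with earlier results of these data known.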

Additional observations from a re-analysis of the deposited data

How the results depend on the processing

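Of the members, the 7 named pathway genes, Kdr and Mir342, none reversed its direction where it was called; for Kdr and Mir342 the alternatives were added after seeing the data, and the Mir342 call ended under 5 of 20 (log2 fold changes from 1.54 to 1.78). Members called with overexpression against the mutated control numbered 1 as reported, 2 with DESeq2, 3 without the expression filter and 0 to 2 when a library was left out. Against the scramble control they numbered 0 as reported, 1 with DESeq2, 2 without the filter and 0 to 1 when a library was left out. Between the controls they numbered 1 with DESeq2, 1 without the filter and 2 when only these groups were fitted. For the difference of the effects 1 was called without the filter, and for the sponge 0 under each alternative. Of all 29774 genes, the fit without the filter called 1390 against the mutated control and 747 against the scramble control. It called 149 between the controls and 331 for the difference. With a library left out, all genes called ranged from 0 to 279 against the mutated control and from 1 to 37 against the scramble control. Replicate numbers did not pair the libraries (correlations of same-numbered deviations from −0.842 to 0.22). With the replicate number as a block 0 members were called, and 0 of all genes with overexpression against the mutated control. Bmp2 there was at −0.90 (edgeR adjusted p = 0.425) by title number and −0.94 (edgeR adjusted p = 0.186) by library name. All genes called with overexpression against the mutated control ranged from 0 to 1390, with 85 as reported and 496 with DESeq2, against the scramble control from 1 to 747, between the controls from 0 to 574, for the sponge from 0 to 24 and for the difference from 0 to 331. Id1 had at most 91 counts and Smad6 at most 34 in a library. The cause of these shifts was not tested.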
